A study of Mus musculus with 6 samples.

Results

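The clustered histone genes were examined in 3' libraries of Ink4a/Arf-/- mouse astrocytes. They were taken as all rows whose symbol starts with Hist1h, Hist2h, Hist3h or Hist4h, that is, the genes named for a replication-dependent histone cluster. The rule found 68 of the 23282 rows: 6 genes for the linker histone H1, 18 for H2A, 19 for H2B, 12 for H3 and 13 for H4. Of these, 54 belong to Hist1 on chromosome 13, 10 to Hist2 on chromosome 3, 3 to Hist3 on chromosome 11 and 1 to Hist4 on chromosome 6.

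The control group was astrocytes transfected with the vector pcDNA3.1-puro (3 libraries), and the other group was the same line transfected with pcDNA3.1-JAG1-puro, referred to as JAG1 (3 libraries). JAG1, a ligand of Notch receptors, is the transfected gene, and the comparison asks how the RNA of these cells differs with it. All libraries carry the Ink4a-/- label, so both groups lack that tumor suppressor locus, although the control libraries are additionally labelled WT for genotype. It is not stated in the labels or methods if the replicates were transfected or cultured apart. P-values therefore measure only the spread between these libraries, which may be technical.

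H2A, H2B, H3 and H4 form the core around which DNA is wound in the nucleosome, and H1 binds the DNA between nucleosomes. Most messages of the clustered histone genes are made during DNA replication and end without a poly(A) tail. Their 3' end is instead formed just behind a conserved stem-loop, which the stem-loop binding protein Slbp recognises. Some of these genes also give polyadenylated messages, in particular in cells that have left the cell cycle. QuantSeq libraries are primed with oligo(dT), which anneals to poly(A) tails and can also anneal to runs of A inside an RNA. The levels below are thus the levels of what such a primer captured, not of all histone RNA in the cell.

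The stem-loop was searched in the transcripts of GENCODE M21 (GRCm38) as the 16 letters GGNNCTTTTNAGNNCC, on the transcript strand. It was present in 44 of the 68 genes (64.7%), in 45 of the 55272 other genes of that annotation (0.0814%) and in 89 of all 55340 (0.161%). A gene without a match only lacks these letters in its annotated transcript. The sites of 10 genes that carry the results are shown with 12 bases before and 2 after the stem-loop, which is in capitals:
Hist1h2ap: aaaaaaaaaaaaGGCTCTTTTCAGAGCCat
Hist1h2ao: aaaaaaaaaaaaGGCTCTTTTCAGAGCCat
Hist1h2ae: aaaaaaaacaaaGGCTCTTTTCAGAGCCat
Hist1h2ab: aaccaaaacaaaGGCTCTTTTCAGAGCCac
Hist1h2ac: ttcaaacccaaaGGCTCTTTTCAGAGCCcc
Hist1h1e: caacaacccaaaGGCTCTTTTCAGAGCCac
Hist1h3c: tatttaaaaaaaGGCTCTTTTAAGAGCCac
Hist1h4b: actgttacaaaaGGTCCTTTTCAGGACCac
Hist1h2bk: tctagcaccaaaGGCTCTTTTAAGAGCCac
Hist4h4: cccatccacaaaGGCCCTTTTCAGGGCCca

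The stem-loops printed for the H2A genes and Hist1h1e have the same letters, and the genes differ in what stands before the stem. Hist1h2ap and Hist1h2ao have a run of 12 A there, Hist1h2ae a run of 8 and Hist1h3c a run of 7. These were the 4 of 44 genes with 7 or more A in a row within the 20 bases before the stem-loop. A second feature was searched, the polyadenylation signal AATAAA or ATTAAA in the last 40 bases of a transcript, and 17 of the 68 genes had it (25%), compared with 23701 of the 55272 other genes (42.9%). The last 30 bases are shown for the genes with the largest rises in JAG1 libraries, with the signal in capitals:
Hist2h2be: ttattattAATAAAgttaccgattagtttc
Hist4h4: agaagatgctagaggagatgaAATAAAtac

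No stem-loop match was found in the annotated transcript of Hist2h2be, whereas Hist4h4 had both features.

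Reads were found for every one of the 68 genes in at least 1 library, and each library held a read for 65 to 68 of them. The depth was 14341634 to 20489062 reads counted on genes per library, and 3 reads, taken as the limit of detection, correspond to 0.148 to 0.206 CPM, that is, counts per 1000000 reads after scaling. At this limit, 60 genes had more than 3 reads in every library and 5 more than 3 in some. The 3 others, Hist1h1t, a testis-specific H1, and Hist3h2ba and Hist3h2bb-ps of the small Hist3 cluster, stayed at or under 3 reads everywhere. All 18 H2A genes and all 12 H3 genes were above it in every library. If each library were thinned to the shallowest depth, 65.0 to 67.6 of the genes would be expected to keep a read.

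Together the 68 genes took 0.195, 0.172 and 0.150% of the reads in the control libraries and 0.137, 0.146 and 0.141% in the JAG1 libraries. All JAG1 libraries were below all control libraries in this share. Wilson 95% intervals, which cover counting error only, ran from 0.193 to 0.197% in control replicate 1 and from 0.148 to 0.151% in control replicate 3. The control libraries thus differed among themselves by more than counting error.

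H2A rows held 90.1 to 92.5% of these counts per library, as far as no read was counted on several rows. Hist1h2ao and Hist1h2ap alone gave 50.6 to 54.8%. The H1 share was 3.21 to 4.18%, and H2B, H3 and H4 each stayed between 1.22 and 2.06%. Levels are not divided by transcript length, since a 3' library counts ends of messages. Over all libraries, the mean level of single genes was 1.79 to 558 CPM for H2A (median 47.1), 0.0188 to 39.3 CPM for H1 (median 4.21), 0.0101 to 5.25 CPM for H2B (median 0.748), 0.552 to 8.41 CPM for H3 (median 1.04) and 0.273 to 8.16 CPM for H4 (median 1.04). Nucleosomes hold the 4 core histones in equal numbers, and the counts of the 4 types in these libraries were far from equal.

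**Figure D1:**
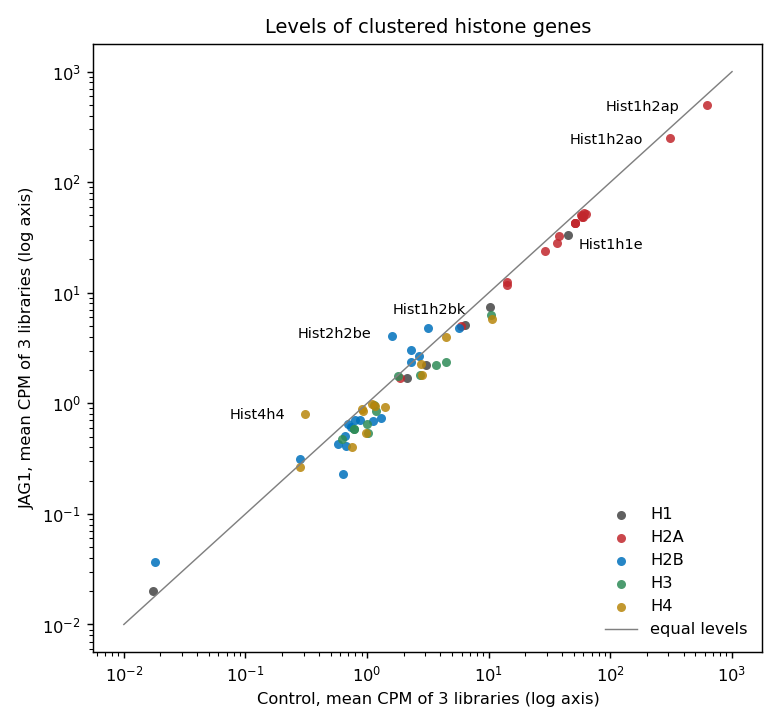
Mean CPM over the 3 control libraries (horizontal) against the 3 JAG1 libraries (vertical), both on log axes, for the 67 genes with a read in both groups, coloured by histone type, with the line of equal levels. H2A genes hold the highest levels, up to 558 CPM averaged over all libraries for Hist1h2ap, most genes lie below the line, and Hist1h2bk, Hist2h2be and Hist4h4 lie above it.

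The rows of one type were not independent measurements. Hist2h2aa1 and Hist2h2aa2 had identical counts in 6 of 6 libraries, and so had Hist2h3c1 and Hist2h3c2. Hist1h2ap held 1.97 to 2.01 times the count of Hist1h2ao in every library. The annotated transcripts of 62 of the 68 genes shared at least one stretch of 50 bases with another gene of the group, and in 6 genes more than 90% of such stretches were shared. The median shared part was 73.0% for H2A, 57.2% for H3, 40.1% for H2B, 39.5% for H4 and 1.1% for H1. Hist1h2ao and Hist1h2ap have 452 bases in a row in common.

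How reads with several matches were counted is not given in the sources used here, so the split of reads between such copies is uncertain, most of all for H2A. A read may also have been counted on more than one row, in which case the H2A sum and share hold some reads more than once. The other H2A rows kept a looser ratio to Hist1h2ap. For example, Hist2h2ac had 2.16 to 2.45% of its count, Hist1h2ab 8.91 to 11.1% and Hist1h2af 4.94 to 6.90%. Hist2h2be, Hist4h4 and Hist2h2bb, by contrast, shared no 50-base stretch with another gene of the group. All 381 bases of Hist2h2bb, however, overlap the annotated genes Gm42743 on the same strand and Gm20628 on the other. Every H2A gene also overlaps an annotated gene on the opposite strand, by 138 bases in Hist1h2ap and Hist1h2ao and over the whole length in Hist2h2aa1 and Hist2h2aa2.

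Levels went along with the run of A before the stem-loop at its upper end, a pattern seen after the levels were known and given as a description. Hist1h2ap and Hist1h2ao, with a run of 12, had means of 558 and 280 CPM, the highest of all. Hist1h2ae, with 8, had 57.1 CPM, beside 56.9 CPM for Hist1h2ag, whose longest run there is 3. Hist1h3c, with 7, had the highest level of the H3 genes, 8.41 CPM, and Hist1h3h followed with 3.40 CPM. Hist1h2ap and Hist1h2ao, with their near-fixed ratio, are not independent points. Runs elsewhere in the annotated transcript did not follow the same pattern. The longest run was 15 in Hist1h2ac (54.1 CPM) and 11 in Hist1h2be (2.33 CPM). It was 8 in Hist1h2bc (5.25 CPM) and in Hist1h1d (1.9 CPM). The description thus holds only for runs just before a matched stem-loop. Whether priming at such runs gave the reads was not tested.

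**Figure D2:**
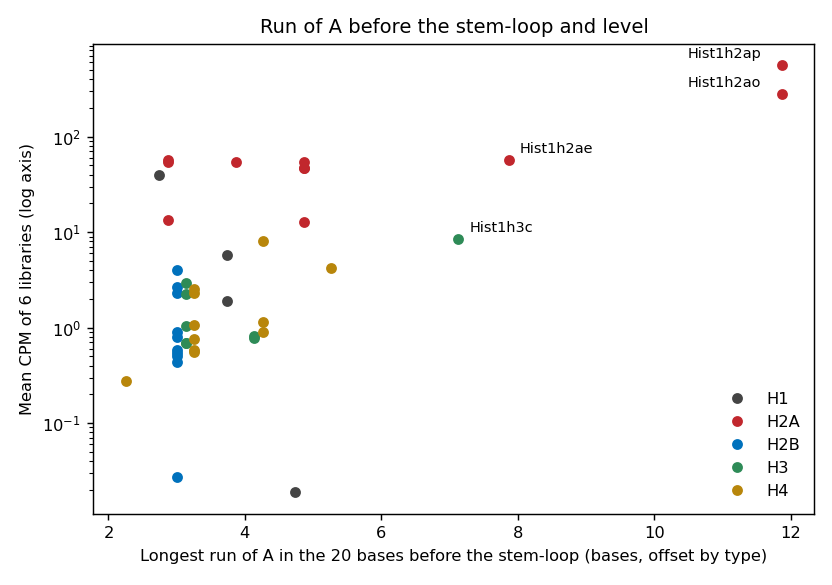
Longest run of A within the 20 bases before the stem-loop (horizontal, in bases, types shifted slightly to keep points apart) against the mean CPM of 6 libraries (vertical, log axis) for the 44 genes with a stem-loop match. The genes with runs of 12 bases reach 280 and 558 CPM, while genes with runs of 3 span nearly the whole range of the others.

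Summed over all 68 genes, the level was 1970, 1740 and 1480 CPM in control and 1370, 1440 and 1410 CPM in JAG1 libraries, with means of 1730 ± 246 and 1410 ± 38.5 (SD, n = 3), a log2 ratio of -0.30. The groups did not overlap, although control replicate 3 stood only slightly above the JAG1 libraries. H2A, which sets this sum, had 1830, 1580 and 1340 CPM against 1250, 1320 and 1290, a log2 ratio of -0.29. Without H2A the sum was 148, 158 and 147 CPM against 115, 120 and 117, a log2 ratio of -0.36. The gap between the groups was wider relative to their spread there than with H2A included.

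H1 summed to 66.9 ± 5.24 CPM in control and 50.1 ± 4.15 in JAG1 libraries (log2 ratio -0.42). For H3 the sums were 29.7 ± 1.12 and 19.1 ± 3.43 CPM (-0.64), and for H4 28.4 ± 2.35 and 20.4 ± 1.16 CPM (-0.48). H2B had 26 ± 1.09 CPM in control and 27.8 ± 1.08 in JAG1 libraries (0.09), although 9 of its 14 tested genes had a log2 fold change below 0, with a median of -0.20. Within H2B, the genes of Hist1 had 22.1 ± 0.926 against 20.7 ± 1.5 CPM and the H2B genes of Hist2 3.91 ± 0.267 against 7.07 ± 0.801 CPM. These bulk libraries cannot tell apart fewer cells making histones, less histone RNA per cell and a smaller part of it captured by oligo(dT).

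**Figure D3:**
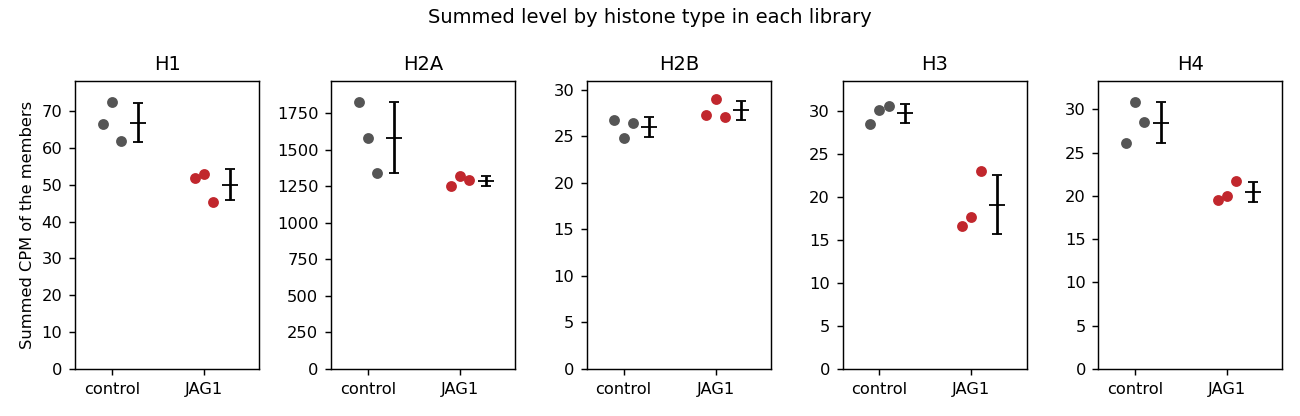
Summed CPM of the genes of each histone type in each of the 3 control and 3 JAG1 libraries (dots), with the mean and SD beside them; each axis starts at 0 and has its own scale. All JAG1 libraries lie below all control libraries for H1, H2A, H3 and H4, and above them for H2B.

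In edgeR's quasi-likelihood test with Benjamini-Hochberg adjustment over the 11712 genes tested, 60 of the 68 histone genes could be tested, and 8 were left out for low counts. Of the 60, 3 rose in JAG1 libraries (5.0%, with 27.4% of all tested genes called higher) and 16 fell (26.7%, with 27.7% of all tested genes called lower). With both directions, 19 were called (31.7%), against 55.1% of all tested genes. The share that fell was thus near that of all genes, and the share that rose was below it. In 54 of the 60 (90%) the log2 fold change was below 0, compared with 5823 of the 11712 (49.7%), and its median was -0.30, compared with 0.00 for all tested genes. The 3 JAG1 libraries were all below the 3 control libraries for 14 of 60 (23.3%, with 30.9% of all tested genes) and all above for 3 (5.0%, with 31.1%). Since many rows share sequence, and 2 pairs of rows are identical, these counts of genes may overstate the number of separate measurements.

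By type, 3 of 5 tested H1 genes, 7 of 18 H2A genes, 4 of 11 H3 genes and 2 of 12 H4 genes fell. The genes that rose were 2 of 14 H2B genes and 1 H4 gene. No H2B gene fell in edgeR's test, and 0 were lower at an unadjusted p under 0.05 there or in DESeq2. DESeq2 called 11 of the 18 H2A genes lower. The median log2 fold change was -0.43 for H1, -0.27 for H2A, -0.20 for H2B, -0.59 for H3 and -0.32 for H4. By cluster, 1 rose and 14 fell of 50 in Hist1, 1 rose and 2 fell of 8 in Hist2, the one tested gene of Hist3 was not called and the single gene of Hist4 rose. The other genes of the chromosomes that hold the clusters had medians of -0.05 on chromosome 13, 0.05 on chromosome 3, 0.00 on chromosome 11 and 0.03 on chromosome 6.

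**Figure D4:**
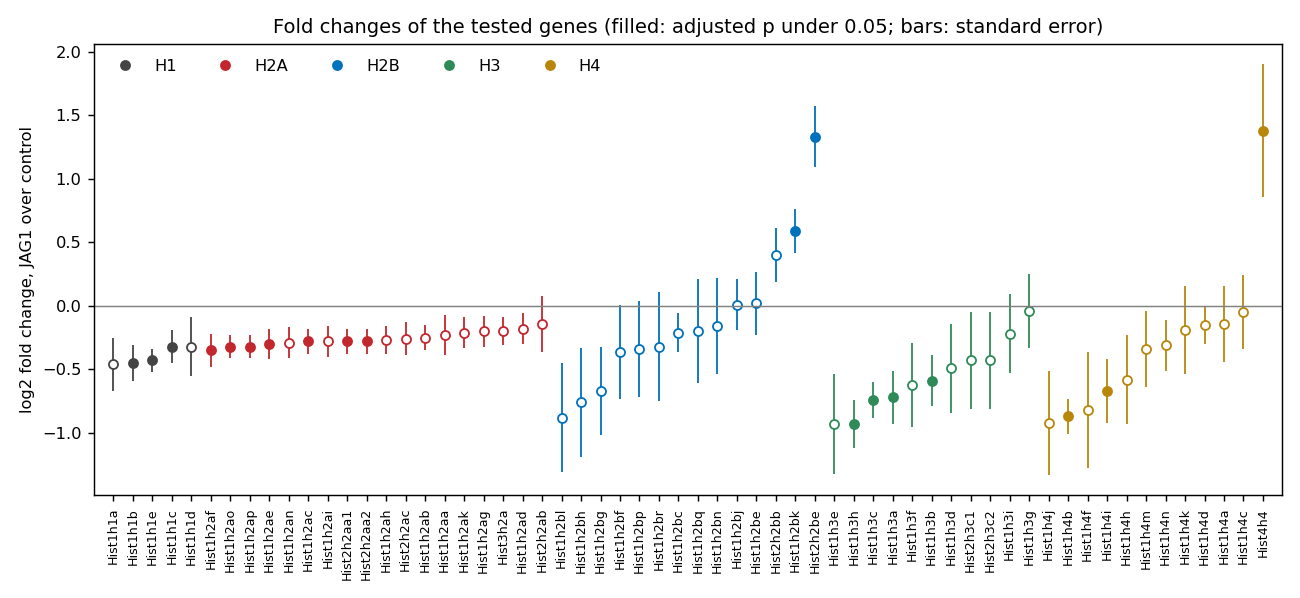
Log2 fold change of JAG1 over control libraries with its standard error for the 60 tested genes, grouped by histone type and ordered within it; filled points have an adjusted p under 0.05 in edgeR's test. H1 and H2A genes all lie below 0, H3 genes too, and the 3 filled points above 0 are Hist1h2bk, Hist2h2be and Hist4h4.

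Among the linker histones, Hist1h1e (chr13:23620629-23622558, minus strand), an H1 of somatic cells, had by far the highest level. It had 45.2, 48.4 and 41.6 CPM in control and 34.4, 36.0 and 30.1 CPM in JAG1 libraries. The groups were clearly apart, and its log2 fold change was -0.43 ± 0.09 (SE; adjusted p = 0.00151, edgeR). Its annotated span overlaps Hist1h2be on the same strand by 496 bases and the annotated gene Gm11398 by 320.

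Hist1h1b had 9.23, 12.2 and 9.21 CPM in control and 7.78, 7.84 and 6.86 in JAG1 libraries (log2 fold change -0.45 ± 0.14, adjusted p = 0.0181, edgeR). Control replicate 2 stood above the other controls, and the call was lost without that library or without JAG1 replicate 3 (adjusted p up to 0.0910). Hist1h1c had 6.37, 6.55 and 6.38 CPM against 5.43, 4.89 and 5.04 (-0.32 ± 0.13, adjusted p = 0.0465). That gap was narrow, and the call was lost with any 1 of the 6 libraries left out (adjusted p up to 0.113), in DESeq2 (0.157), with library size alone, without the filter and with a replicate block. Hist1h1a (-0.46) and Hist1h1d (-0.32) did not pass the test.

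The H2A rows that fell were Hist1h2ap, Hist1h2ao, Hist1h2ac, Hist1h2ae, Hist1h2af and the identical pair Hist2h2aa1 and Hist2h2aa2. Hist1h2ap (chr13:21833026-21833507, minus strand), whose stem-loop site opens the sequences above, had 713, 621 and 527 CPM in control and 496, 486 and 505 in JAG1 libraries. Its log2 fold change was -0.32 ± 0.09 (adjusted p = 0.00889, edgeR). Hist1h2ao (chr13:21810465-21810944, plus strand) had 361, 308 and 262 CPM against 252, 244 and 253 (-0.32 ± 0.09, adjusted p = 0.0133). In both rows the control libraries were widely spread, with replicate 1 highest, and the JAG1 libraries lay together just under control replicate 3. Without JAG1 replicate 2 the adjusted p of Hist1h2ao was 0.0534.

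The other rows of this type that fell overlapped between groups. Hist1h2ac had 66.8, 61.6 and 49.6 CPM against 45.5, 52.7 and 48.2 (log2 fold change -0.28, adjusted p = 0.0362, edgeR). Hist1h2ae had 72.9, 62.6 and 53.4 CPM against 45.7, 58.1 and 49.9 (-0.30, adjusted p = 0.0444). Control replicate 3 fell among the JAG1 libraries in each. Hist1h2af had 41.8, 36.5 and 29.9 CPM against 24.5, 33.5 and 27.3 (-0.35, adjusted p = 0.0453), and Hist2h2aa1 and Hist2h2aa2 each had 58.6, 51.6 and 44.4 CPM against 40.3, 45.3 and 42.3 (-0.28, adjusted p = 0.0315). For all 5 rows the call was lost without control replicate 1, control replicate 2, JAG1 replicate 1 or JAG1 replicate 3 (adjusted p up to 0.185), and for Hist1h2ae and Hist1h2af also with library size alone.

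The uncalled H2A rows with the highest levels are given next. Hist1h2ag had 72.4, 59.8 and 50.3 CPM in control and 51.0, 58.0 and 49.6 in JAG1 libraries. Hist1h2ad had 67.3, 57.4 and 47.2 CPM against 45.1, 58.1 and 49.0, and Hist1h2ab had 67.0, 58.0 and 50.4 against 44.2, 53.7 and 49.7. Control replicate 1 was the highest library in each of these 3 and the groups overlapped. Hist1h2ai had 68.1, 58.8 and 49.2 CPM against 44.0, 54.5 and 46.5, and Hist1h2ah had 59.7, 52.2 and 41.8 against 40, 46.4 and 41.7. DESeq2 called Hist1h2ab, Hist1h2ai and Hist1h2ah lower (adjusted p = 0.0424, 0.0294 and 0.0442). Log2 fold changes of the H2A rows ranged from -0.35 to -0.14. Hist3h2a, with 14.2 ± 1.89 against 12.4 ± 0.315 CPM, lies within the annotated span of Trim17 on the same strand.

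H3 had the most negative median of the 5 types. Hist1h3c (chr13:23744973-23745602, minus strand) had 9.93, 10.8 and 10.8 CPM in control and 5.48, 5.78 and 7.65 in JAG1 libraries, with a log2 fold change of -0.74 ± 0.14 (adjusted p = 0.000896, edgeR). Hist1h3h (chr13:21717659-21718069, plus strand) had 4.25, 4.35 and 4.71 CPM against 1.79, 2.55 and 2.73 (-0.93 ± 0.19, adjusted p = 0.00168). The control libraries lay close together in both genes and the JAG1 libraries well below. Of the 50-base stretches of Hist1h3h, 93.9% were shared with other genes of the group, and of those of Hist1h3c 47.0%.

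Hist1h3a had 4.10, 2.90 and 4.03 CPM against 2.49, 1.86 and 2.31 (-0.72 ± 0.21, adjusted p = 0.0124, edgeR), with no overlap. Hist1h3b had 2.86, 2.74 and 2.56 CPM against 1.69, 1.58 and 2.13 (-0.59 ± 0.20, adjusted p = 0.0285). Its groups did not overlap either, but the call was lost without control replicate 1, control replicate 2, JAG1 replicate 1 or JAG1 replicate 2 (adjusted p up to 0.0923) and in DESeq2 (adjusted p = 0.102). The 7 H3 genes that did not pass had log2 fold changes from -0.93 for Hist1h3e to -0.04 for Hist1h3g. H3 messages were unlike H2A in that no control library stood out across the called genes.

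Hist1h4b (chr13:23757013-23757409, plus strand) had the highest level of the H4 genes and the smallest adjusted p of all 60. It had 9.63, 11.1 and 11 CPM in control and 6.03, 4.75 and 6.44 in JAG1 libraries (log2 fold change -0.87 ± 0.14, adjusted p = 0.000229, edgeR). The lowest control library was well above the highest JAG1 library. Its 397 annotated bases all lie opposite the annotated antisense gene 4930558J22Rik. The strand used in counting is not given, so reads of that gene may have been counted on Hist1h4b.

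Hist1h4i had 2.37, 2.90 and 3.24 CPM against 1.30, 2.34 and 1.82 (-0.67 ± 0.25, adjusted p = 0.0396, edgeR). The groups nearly touched, and the call was lost in DESeq2 (adjusted p = 0.0815) and without control replicate 2, control replicate 3, JAG1 replicate 1 or JAG1 replicate 3 (adjusted p up to 0.169). The other tested H4 genes of Hist1 ranged from -0.92 for Hist1h4j to -0.05 for Hist1h4c and did not pass.

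The genes that rose were Hist2h2be, Hist1h2bk and Hist4h4. Hist2h2be (chr3:96221119-96223738, plus strand), an H2B gene whose annotated transcript ends with a polyadenylation signal, had 1.58, 1.56 and 1.67 CPM in control and 4.83, 4.47 and 2.79 in JAG1 libraries. JAG1 replicate 3 was lower than the other JAG1 libraries, yet above every control. The log2 fold change was 1.33 ± 0.24 (adjusted p = 0.000601, edgeR), and 1.17 to 1.54 over all alternatives. Hist1h2bk (chr13:22035870-22036345, plus strand), an H2B gene with the stem-loop shown above, had 3.11, 3.60 and 2.82 CPM against 4.34, 4.4 and 5.59 (0.59 ± 0.17, adjusted p = 0.0142). The groups did not overlap, and without JAG1 replicate 3, the highest library, the adjusted p was 0.0637. Of the 50-base stretches of Hist1h2bk, 74.2% were shared with other genes of the group.

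Hist4h4 (chr6:136801553-136804415, minus strand), an H4 gene outside the large clusters, was at a low level, with 9, 8 and 1 reads in control and 19, 9 and 14 in JAG1 libraries. These correspond to 0.444, 0.429 and 0.0523 CPM against 0.947, 0.619 and 0.850. No library overlapped, but control replicate 3 was below the limit of 3 reads. The log2 fold change was 1.38 ± 0.52 (adjusted p = 0.0424, edgeR), and the call was lost in DESeq2 (adjusted p = 0.0832) and without any 1 library other than control replicate 1 (adjusted p up to 0.139). Hist2h2bb, in the same cluster as Hist2h2be, had a log2 fold change of 0.40 that did not pass (adjusted p = 0.122). The other 11 tested H2B genes ranged from -0.88 for Hist1h2bl to 0.02 for Hist1h2be, and none of them passed.

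**Figure D5:**
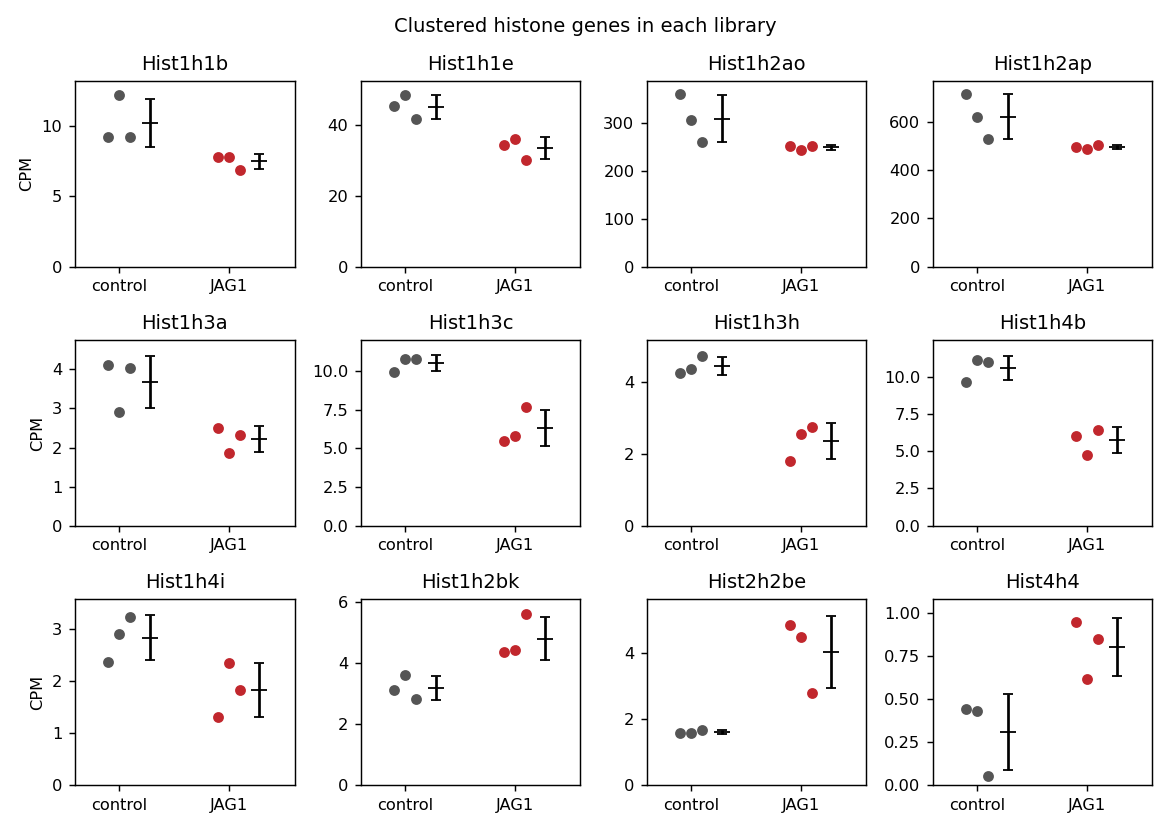
CPM in each of the 3 control and 3 JAG1 libraries (dots), with the mean and SD beside them, for 12 genes called higher or lower; each axis starts at 0 and has its own scale. Hist1h2ao and Hist1h2ap have spread-out controls that end just above the JAG1 libraries, Hist1h3c, Hist1h3h and Hist1h4b have a wide gap, and the 3 genes of the last row other than Hist1h4i are higher in all JAG1 libraries.

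Genes that rose and genes that fell were found both with and without a polyadenylation signal. With so few genes that rose, the counts cannot show whether the signal went along with direction. A gene without the signal only lacks it in the last 40 bases of its annotated transcripts. Of 14 tested genes with the signal, 2 rose and 3 fell, with a median log2 fold change of -0.31, and of 46 without it, 1 rose and 13 fell, with a median of -0.30. The genes with a stem-loop match had 2 that rose and 13 that fell of 39 tested, with a median of -0.32. Hist2h2be and Hist4h4 were the genes with the signal that rose, and Hist1h1c, Hist1h2ae and Hist1h4i those that fell.

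The 8 genes left out of the test were 5 H2B genes (Hist1h2ba, Hist1h2bb, Hist1h2bm, Hist3h2ba, Hist3h2bb-ps), Hist1h1t, Hist2h3b and Hist2h4. Hist1h2bm and Hist2h3b had more than 3 reads in every library. Hist1h2bm had 0.790, 0.483 and 0.471 CPM in control and 0.399, 0.413 and 0.486 in JAG1 libraries, and Hist2h3b had 0.444, 0.966 and 0.471 against 0.598, 0.344 and 0.486. The groups overlapped in both. Hist1h2bb, named after its values were seen, had 14, 14 and 9 reads in control and 6, 3 and 3 in JAG1 libraries. Its groups did not overlap, with JAG1 replicates 2 and 3 at the limit of 3 reads. These genes were removed by the filter on low counts and have no test.

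Histone genes outside the clusters mostly give polyadenylated messages, and many of them are made through the whole cell cycle. Of 11 tested replacement histone genes 2 rose and 6 fell, with a median of -0.22. For this list and each list below, the shares to compare with are those of all tested genes, 27.4% called higher and 27.7% called lower. H3f3b, which encodes the H3 variant made independently of replication, fell from 1560 ± 132 to 910 ± 21.7 CPM (log2 fold change -0.77, adjusted p = 1.43e-06, edgeR). H1f0, a linker histone of resting cells, fell by 0.42 on the log2 scale, and H2afy2, a macroH2A gene, by 1.73. The other macroH2A gene, H2afy, rose by 0.50. Cenpa was the other gene of the list that rose (log2 fold change 0.33, adjusted p = 0.00118, edgeR). Neither H1fx (log2 fold change -0.02, adjusted p = 0.830) nor H3f3a (-0.07, adjusted p = 0.533) passed edgeR's test.

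Genes linked to the processing of histone messages were counted as a list of 29, of which 6 rose and 8 fell, with a median of -0.02. The list is wider than 3' end formation and also holds genes such as Npat, Upf1, Lsm1, Pan2, Ctif, Mif4gd and Zcchc11. Slbp had 54.3 ± 3.82 CPM in control and 57.4 ± 5.40 in JAG1 libraries (log2 fold change 0.08 ± 0.08, adjusted p = 0.439, edgeR). Cpsf2, a subunit of the cleavage machinery, rose by 0.93 and Mif4gd, which binds Slbp, by 0.62, whereas the scaffold Sympk fell by 0.46 and Zcchc11, a uridylyl transferase, by 0.47. Among 29 histone chaperone and related genes, 8 rose and 10 fell, with a median of 0.00. Ipo4, an importin, rose by 0.51, while Ubn2, Atrx and Tonsl, which act in chaperone complexes, fell by 0.58, 0.50 and 0.71.

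Clustered histone messages are made in S phase. Of 42 S-phase genes, 11 rose and 9 fell, with a median of 0.01, beside 27.4% called higher and 27.7% called lower of all tested genes. Their summed level was 5720 to 5840 CPM in control and 5840 to 6030 CPM in JAG1 libraries. Rrm2, a subunit of ribonucleotide reductase, rose by 0.98, Pola2 by 0.63 and Fen1 by 0.56, and Gins3 fell by 0.63. Of 30 genes of G2 and mitosis, 11 rose and 7 fell, with a median of 0.09, and the sums were 5540 to 5630 against 5870 to 5950 CPM. Kif11 rose by 0.93 and Aurkb by 0.66, while Tpx2 fell by 1.10 and Bub1 by 0.97. The summed levels of these cell cycle lists did not fall together with the summed histone level.

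Rows named for other RNAs without a poly(A) tail were read as a list of 131, chosen by symbol alone and mainly small nucleolar and small nuclear RNA genes. Whether their reads came from messages of overlapping genes was not checked. Of 39 tested, 22 rose and 2 fell, with a median of 0.91, beside 27.4% called higher and 27.7% called lower of all tested genes. Their summed level without Rn45s, the ribosomal RNA row, was 101 to 110 CPM in control and 142 to 158 CPM in JAG1 libraries. Snora26 rose from 5.10 ± 1.21 to 15.9 ± 2.40 CPM and Snord104 fell from 37.1 ± 1.61 to 28.5 ± 2.66 CPM. Rn45s held 4.38 to 5.16% of the reads per library and was not called (log2 fold change -0.12, adjusted p = 0.142, edgeR). With it, the sum was 45300 to 52400 CPM in control and 43900 to 46300 CPM in JAG1 libraries. The difference between this list and the clustered histone genes was not tested.

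The Jag1 row had 8.99, 10.8 and 11.2 CPM in control and 15.2, 13.6 and 13.8 in JAG1 libraries (log2 fold change 0.46 ± 0.11, adjusted p = 0.00446, edgeR). Whether reads of the transfected vector's message could be counted on that row is not given in the sources used here. Of 13 astrocyte markers, 5, including Gfap and Aqp4 at 0 reads, stayed at or under 3 reads in every library, and 7 of 8 tested fell. Their sum, most of it Vim, was 3290 to 3780 CPM in control and 3360 to 3420 CPM in JAG1 libraries. At or under 3 reads everywhere were 8 of 10 neuron markers (Snap25 and Syt1 at 0), 7 of 10 of oligodendrocytes (Olig1, Sox10 and Mog at 0), 5 of 10 of microglia and 6 of 8 of endothelium (Tek and Emcn at 0). Their sums in control and JAG1 libraries were 2.46 to 3.41 and 0.364 to 0.482 CPM for neurons, 5.07 to 6.82 and 4.54 to 5.22 for oligodendrocytes, 12.8 to 14.3 and 13 to 14 for microglia, and 1.04 to 1.99 and 4.44 to 4.92 for endothelium. Of 9 mesenchymal markers 3 were at 0 (Lum, Rgs5 and Cspg4), and of 6 tested 1 rose and 5 fell, and their sum was 818 to 854 CPM in control and 312 to 361 CPM in JAG1 libraries. The part of these marker changes in the histone values was not tested.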

How the data were processed

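Total RNA libraries were made with the QuantSeq 3' kit from 3 control and 3 JAG1 samples. The authors deposited 1 table per library with raw read counts per gene symbol, used here, and log2 normalized values, not used here. The submitters' processing notes name Bowtie2, bedtools, edgeR, GRCm38 and mm10. Their versions, the annotation, strand setting and handling of reads with several matches are not given in the sources used here.

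The counts were analysed in R 4.3.3 with edgeR 4.0.16. Genes were kept by filterByExpr (minimum count 10; 11712 genes), libraries were scaled by TMM, and groups were compared by the quasi-likelihood test with Benjamini-Hochberg adjustment and a threshold of 0.05. Standard errors were derived from the F statistic. CPM are TMM-normalized, with the SD over 3 libraries. The script was tested on simulated data. Motifs, overlaps, coordinates and 50-base stretches came from GENCODE M21 (GRCm38), in which all 68 symbols matched. In RefSeq, 67 matched 1 gene, and Hist1h2ap is a synonym of 2.

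Per-library values are given for every called clustered histone gene and the 12 with the highest mean CPM. From other lists, up to 4 called genes with the largest change and at least 10 CPM have fold changes or group means. Cenpa was added after its values were seen. Cell type markers are given by counts and sums, and single markers that changed are not listed. The genes and lists were chosen with earlier results of these data known. Alternatives were DESeq2 1.42.0, library size alone, upper-quartile scaling, no filter, a replicate block, a 2-fold limit and leaving out each library.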

Additional observations from a re-analysis of the deposited data

How the results depend on the processing

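With 3 clustered histone genes higher and 16 lower as the reported counts, the counts under the other fits were 2 and 17 with DESeq2, 3 and 13 with library size alone, 3 and 19 with upper-quartile scaling and 3 and 20 without the filter. With a limit of 2-fold, 2 were higher and 0 lower in edgeR, at any p, since the most negative log2 fold change of a tested gene was -0.93. Leaving out each library in turn gave 1 to 3 higher and 7 to 25 lower: 9 lower without control replicate 1, 7 without control replicate 2, 25 without control replicate 3, 9 without JAG1 replicate 1, 15 without JAG1 replicate 2 and 10 without JAG1 replicate 3, and 1 higher without JAG1 replicate 3. No named gene changed direction in any of these fits. Of the 19 called genes, 7 (Hist1h1e, Hist1h2ap, Hist1h3a, Hist1h3c, Hist1h3h and Hist1h4b lower, Hist2h2be higher) were called in every scaling, filter, block and left-out fit. The cause of the other differences was not tested. Same-numbered libraries had correlations of 0.148, 0.0614 and 0.119, so the numbers were not taken as pairs, although each library correlated best with its own number. A fit with the replicate block gave 3 higher and 19 lower. Counting each pair of identical rows once, an alternative chosen after seeing the data, gave 3 higher and 15 lower. The summed level had log2 ratios of -0.41 to -0.20 with 1 library left out. The median of all genes moved by at most 0.02 between scalings. Depth limits genes of a few reads per library, such as Hist4h4.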
